A study of Mus musculus with 8 samples.

Results

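Of the 18132 named rows on the array, 52 carried names of eukaryotic translation initiation factors. They were all rows whose name begins with EIF followed by a digit between 1 and 6, without EIF4EBP1 and EIF2S3Y, and they stood for 49 genes because *Eif3a*, *Eif3g* and *Eif4e2* each had 2 rows. The rule took names, not values, so it also brought in 4 Argonaute genes under their older names EIF2C1 to EIF2C4. The eIF2 kinase PERK (*Eif2ak3*), eIF1 (*Eif1*) and *Eif2b3* were not analysed here. RNA was measured on 8 one-colour bead arrays of mouse embryonic fibroblasts (MEFs), taken from C57BL/6J embryos at day 13.5. The groups, with 2 biological duplicates each, were Btg1 KO MEFs after 16 h in glutamine-free DMEM, untreated Btg1 KO MEFs (0 h), WT MEFs after 16 h in glutamine-free DMEM and untreated WT MEFs. Btg1 KO cells came from Btg1-/- embryos and WT cells carried the intact gene. The glutamine-free medium held dialyzed serum and the usual medium heat-inactivated serum, so that loss of glutamine and change of serum cannot be told apart. Starved is used below for the 16 h groups.

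Translation starts when eIF2, a complex of 3 subunits, brings the initiator tRNA to the small ribosomal subunit as a GTP-bound complex. After start codon recognition, helped by eIF1, eIF1A and eIF5, eIF2 leaves in its GDP form, and the exchange factor eIF2B returns it to the GTP form. The eIF2 kinases HRI, PKR, PERK and GCN2 phosphorylate the alpha subunit of eIF2 under stress, which blocks eIF2B, lowers general initiation and favours a few messages such as *Atf4*. GCN2 is the kinase that senses uncharged tRNA when an amino acid is short. The large eIF3 complex bridges the small subunit to eIF4F, which consists of the cap-binding protein eIF4E, the helicase eIF4A and the scaffold eIF4G and recruits capped mRNA.

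A row was tested where the mean of at least 1 group reached 3, the background level of the study, and 44 of the 52 rows did so. The values are log2 RMA values, and a difference of 1 is a doubling of signal. The level of 1 probe cannot be set against that of another, so only differences between groups of the same row are compared. Called means an adjusted p under 0.05 in limma, with the adjustment over all 12691 rows tested. The deleted gene was set against the labels, and its row kept signal above background in Btg1 KO cells. BTG1 read 10.40 and 10.45 in starved Btg1 KO cells and 9.36 and 9.16 in untreated Btg1 KO cells, against 12.40 and 12.40 in starved WT cells and 11.17 and 11.23 in untreated WT cells. Fibroblast markers were at 3 or more on every array for 8 of 8 rows. The median of 12 macrophage markers was 7.71 on the starved and 8.19 on the untreated array of Btg1 KO replicate 1, 6.12 and 6.36 on those of Btg1 KO replicate 2, and between 5.15 and 5.76 on the WT arrays. Of these 12 markers, 9 were highest on both arrays of Btg1 KO replicate 1. The exceptions were *Itgam*, *Ptprc*, which was below 3 on every array, and *Fcer1g*, which read 2.13 on the starved and 2.35 on the untreated array of Btg1 KO replicate 1, against 7.26 to 7.69 on the other 6 arrays. Their part in the results below was not tested. Counts without those 2 arrays are given for the members as a whole, after starvation and between genotypes. They are not given for the groups of members or the gene lists.

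In starved against untreated Btg1 KO MEFs, 10 of the 44 tested rows were called, 6 higher and 4 lower. These were 22.7% of the members, beside 15.7% of all rows tested (8.44% higher and 7.24% lower). In WT MEFs 14 rows were called, 9 higher and 5 lower, which is 31.8% beside 24.7% of all rows (13.1% higher and 11.6% lower). All 10 rows of Btg1 KO cells were among the 14 of WT cells and went the same way, and the other 4 rows had the sign of the WT change. The count in Btg1 KO cells was 6 without Btg1 KO untreated replicate 1, 5 without Btg1 KO starved replicate 1 and 5 without Btg1 KO starved replicate 2. It was 3 without both arrays of Btg1 KO replicate 1 and 5 without both arrays of WT replicate 2. The count in WT cells was 9 without WT starved replicate 1 and 6 without both arrays of WT replicate 2. Starved arrays of Btg1 KO cells were above both untreated arrays for 15 of the 44 rows and below for 9, beside 29.6% and 25.5% of all rows, and those of WT cells were above for 18 and below for 13, beside 33.4% and 29.6%. The median difference of the 44 rows was 0.10 in Btg1 KO and 0.05 in WT cells, beside 0.03 and 0.03 over all rows tested. The tested members had a median signal between 9.85 and 10.08 on the arrays, and all rows tested one between 5.98 and 6.02. The shares of all rows given here and below are not matched for signal, and the part of signal in them was not tested.

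**Figure D1:**
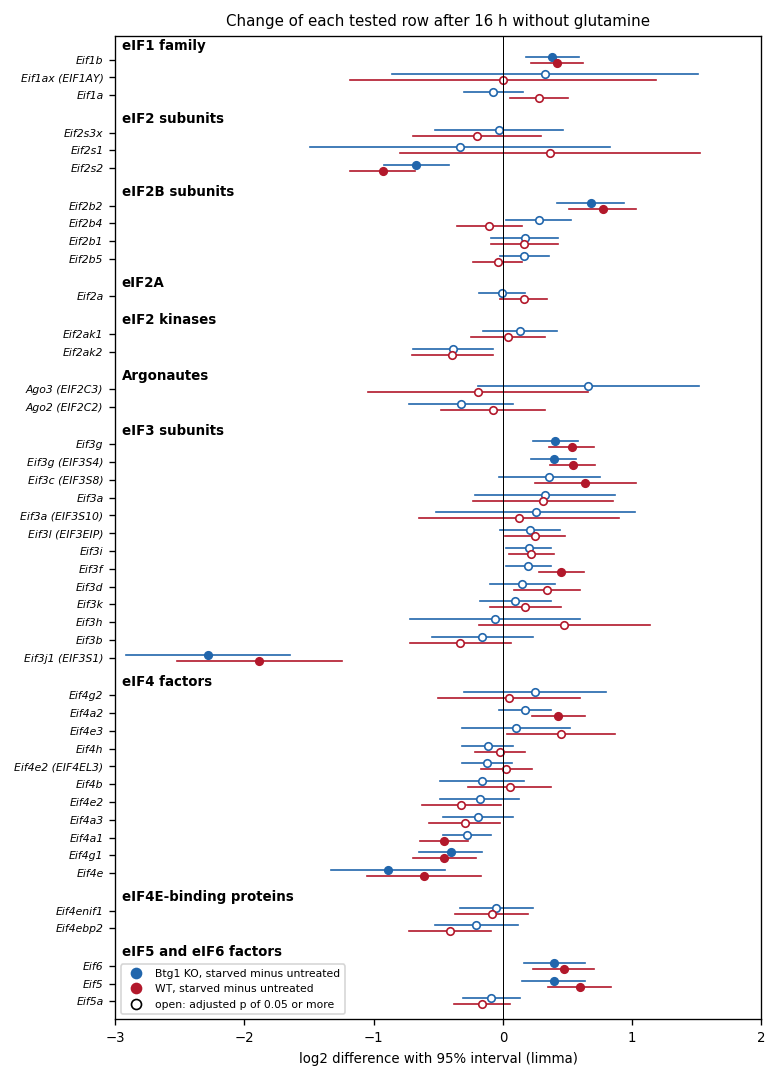
Log2 difference, starved minus untreated, of each of the 44 tested rows in Btg1 KO (blue) and WT (red) MEFs, with 95% intervals from limma, grouped by role. Filled points were called: 10 in Btg1 KO and 14 in WT cells, with *Eif3j1* lowest at -2.28 in Btg1 KO and -1.89 in WT cells and *Eif2b2* highest at 0.68 in Btg1 KO and 0.77 in WT cells.

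The eIF2 kinases were not among the called rows. *Eif2ak4*, which encodes GCN2, had group means under 3 in all groups and was not tested. Its arrays read 1.63 and 2.45 in starved Btg1 KO cells, against 1.57 and 2.31 in untreated Btg1 KO cells, and 3.04 and 2.88 in starved WT cells, against 1.86 and 1.98 in untreated WT cells. The 2 starved WT arrays were the highest of the 8, but 1 of them was itself under 3. *Eif2ak1* (HRI, the heme-regulated kinase) read 8.31 and 8.36 in starved Btg1 KO cells, against 8.11 and 8.30 in untreated Btg1 KO cells, and 8.40 and 8.45 in starved WT cells, against 8.35 and 8.42 in untreated WT cells. Its difference was 0.13 (SE 0.13, adjusted p = 0.56) in Btg1 KO and 0.04 (SE 0.13, adjusted p = 0.87) in WT cells, and arrays overlapped in WT cells.

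*Eif2ak2* (PKR, the kinase activated by double-stranded RNA) was lower on both starved arrays than on both untreated arrays in each genotype. It read 9.30 and 9.14 in starved Btg1 KO cells, against 9.78 and 9.43 in untreated Btg1 KO cells, and 9.15 and 9.29 in starved WT cells, against 9.55 and 9.68 in untreated WT cells. The difference was -0.39 (SE 0.14, adjusted p = 0.095) in Btg1 KO and -0.39 (SE 0.14, adjusted p = 0.07) in WT cells and was not called in either. Among 17 alternative tests of each difference it passed in 2 in Btg1 KO cells and 5 in WT cells. The difference of its responses between genotypes was 0.00 with a 95% interval between -0.44 and 0.44.

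**Figure D2:**
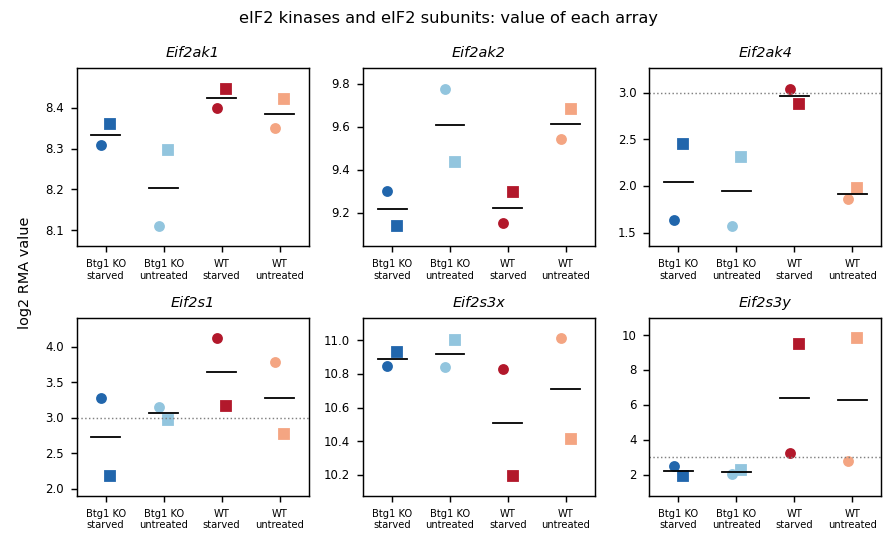
Log2 RMA value of each array (circle, replicate 1; square, replicate 2; line, group mean) for the measured eIF2 kinases, 2 eIF2 subunits and *Eif2s3y*, with the background level of 3 as a dotted line. *Eif2ak2* was between 9.14 and 9.30 on the starved arrays and between 9.43 and 9.78 on the untreated arrays; *Eif2s3x* was lowest on the 2 arrays of WT replicate 2, which alone had *Eif2s3y* above 9.

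Of the 3 eIF2 subunits, the beta subunit fell. *Eif2s2* (eIF2 beta) read 9.60 and 9.46 in starved Btg1 KO cells, against 10.24 and 10.16 in untreated Btg1 KO cells, a difference of -0.67 (SE 0.11, adjusted p = 0.0041). The WT arrays read 9.07 and 9.28 in starved WT cells, against 10.14 and 10.06 in untreated WT cells, a difference of -0.93 (SE 0.11, adjusted p = 0.00036). Starved and untreated arrays did not overlap in either genotype, and the drop was to 0.629 times the untreated level in Btg1 KO cells and 0.525 times in WT cells. The smaller change in Btg1 KO cells was not distinguished from that of WT cells: the difference of responses was 0.26 (SE 0.16, adjusted p = 0.84), with an interval between -0.10 and 0.62.

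*Eif2s1*, the alpha subunit that the kinases phosphorylate, lay near background, between 2.19 and 4.11, and its difference was -0.33 (SE 0.52, adjusted p = 0.73) in Btg1 KO and 0.36 (SE 0.52, adjusted p = 0.68) in WT cells. The gamma subunit has an X-linked and a Y-linked gene. *Eif2s3x* read 10.85 and 10.93 in starved Btg1 KO cells, against 10.84 and 11.00 in untreated Btg1 KO cells, and 10.83 and 10.19 in starved WT cells, against 11.01 and 10.41 in untreated WT cells. Both arrays of WT replicate 2 were below the other 6, and the same 2 arrays had EIF2S3Y at 9.49 (starved) and 9.81 (untreated) while the other 6 lay between 1.94 and 3.25. The WT duplicates thus differed in the Y-linked row, and the WT spread of *Eif2s3x* holds that difference. Within WT replicate 1 and within WT replicate 2 *Eif2s3x* was lower on the starved than on the untreated array, by values that limma did not call (-0.20 (SE 0.22, adjusted p = 0.58)).

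Among the 4 measured eIF2B subunits, the beta subunit rose and the others were not called. *Eif2b2* (eIF2B beta) read 10.03 and 9.88 in starved Btg1 KO cells, against 9.29 and 9.26 in untreated Btg1 KO cells, a difference of 0.68 (SE 0.11, adjusted p = 0.0042). WT cells gave 10.13 and 9.90 in starved WT cells, against 9.21 and 9.28 in untreated WT cells, a difference of 0.77 (SE 0.11, adjusted p = 0.0011). These are folds of 1.60 in Btg1 KO and 1.71 in WT cells, and arrays did not overlap. *Eif2b1* (alpha) differed by 0.17 (SE 0.11, adjusted p = 0.38) in Btg1 KO and 0.17 (SE 0.11, adjusted p = 0.34) in WT cells.

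*Eif2b4* (delta) had the largest difference of responses among the eIF2 and eIF2B rows that were above background on all arrays. It read 10.01 and 9.84 in starved Btg1 KO cells, against 9.62 and 9.68 in untreated Btg1 KO cells, and 9.83 and 9.79 in starved WT cells, against 10.02 and 9.81 in untreated WT cells. Starved arrays were above untreated arrays in Btg1 KO cells and overlapped with them in WT cells, and the difference of responses was 0.38 (SE 0.16, adjusted p = 0.76), not called. *Eif2b5* (epsilon, the catalytic subunit) read 11.07 and 11.03 in starved Btg1 KO cells, against 10.84 and 10.93 in untreated Btg1 KO cells, and 11.10 and 11.10 in starved WT cells, against 11.17 and 11.11 in untreated WT cells. Neither change was called, with 0.17 (SE 0.09, adjusted p = 0.24) in Btg1 KO and -0.04 (SE 0.09, adjusted p = 0.78) in WT cells. Taken as 1 group of 7 rows, the eIF2 and eIF2B subunits had 1 row called higher and 1 lower in each genotype. These were 28.6% of the 7 rows, beside 15.7% of all rows tested in Btg1 KO and 24.7% in WT cells. The median of the 7 rows was 0.17 in Btg1 KO and -0.04 in WT cells, beside 0.03 and 0.03 over all rows. *Eif2a*, which encodes a separate initiator tRNA-binding protein, differed by -0.01 (SE 0.08, adjusted p = 0.97) in Btg1 KO and 0.16 (SE 0.08, adjusted p = 0.19) in WT cells.

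Of the 13 tested eIF3 rows, in which *Eif3a* and *Eif3g* are counted with 2 rows each, 2 were called higher and 1 lower in Btg1 KO cells, and 4 higher and 1 lower in WT cells. Over all rows tested 15.7% were called in Btg1 KO and 24.7% in WT cells. The difference was positive in 10 of 13 rows in Btg1 KO cells, with a median of 0.20, and in 11 of 13 in WT cells, with a median of 0.31. Over all rows tested 52.1% of differences were positive in Btg1 KO and 52.4% in WT cells. Both rows called higher in Btg1 KO cells were rows of *Eif3g*. With 1 row kept per gene, 1 of 11 was called higher and 1 lower in Btg1 KO cells (18.2%), and 3 higher and 1 lower in WT cells (36.4%). On that count 8 of 11 were positive in Btg1 KO and 9 of 11 in WT cells. The group's rows share the same arrays and are not independent of each other.

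*Eif3g*, an RNA-binding subunit, was measured by 2 rows that gave like values. The row EIF3G read 12.77 and 12.86 in starved Btg1 KO cells, against 12.39 and 12.42 in untreated Btg1 KO cells, and 13.08 and 13.06 in starved WT cells, against 12.55 and 12.53 in untreated WT cells. The row EIF3S4 read 12.99 and 12.99 in starved Btg1 KO cells, against 12.60 and 12.59 in untreated Btg1 KO cells, and 13.33 and 13.33 in starved WT cells, against 12.85 and 12.73 in untreated WT cells. Both rows were higher on every starved array of a genotype than on its untreated arrays. For EIF3G the difference was 0.41 (SE 0.08, adjusted p = 0.0072) in Btg1 KO and 0.53 (SE 0.08, adjusted p = 0.00091) in WT cells. For EIF3S4 it was 0.39 (SE 0.08, adjusted p = 0.0091) in Btg1 KO and 0.54 (SE 0.08, adjusted p = 0.00091) in WT cells.

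*Eif3f*, a subunit with an MPN domain, read 13.95 and 13.94 in starved Btg1 KO cells, against 13.69 and 13.81 in untreated Btg1 KO cells, a difference of 0.19 (SE 0.08, adjusted p = 0.13) that was not called. Its WT arrays read 14.00 and 14.05 in starved WT cells, against 13.57 and 13.58 in untreated WT cells, a difference of 0.45 (SE 0.08, adjusted p = 0.0023) that was called. The difference of responses was -0.26 (SE 0.11, adjusted p = 0.77), not called. *Eif3c* (row EIF3S8), one of the core subunits, read 10.51 and 11.10 in starved Btg1 KO cells, against 10.52 and 10.36 in untreated Btg1 KO cells. The starved Btg1 KO duplicates lay apart, and the difference of 0.36 (SE 0.17, adjusted p = 0.21) was not called. In WT cells it read 10.93 and 11.18 in starved WT cells, against 10.38 and 10.46 in untreated WT cells, a difference of 0.64 (SE 0.17, adjusted p = 0.025). The WT call was lost in 7 of 17 alternative tests, with an adjusted p of up to 0.273.

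*Eif3j1* (row EIF3S1), the loosely bound J subunit, had the largest change of all members and fell. The array name does not separate it from its near copy *Eif3j2*, and the signal may hold both. It read 3.63 and 3.52 in starved Btg1 KO cells, against 5.91 and 5.80 in untreated Btg1 KO cells, a difference of -2.28 (SE 0.28, adjusted p = 0.001). The WT arrays read 3.73 and 3.93 in starved WT cells, against 5.66 and 5.78 in untreated WT cells, a difference of -1.89 (SE 0.28, adjusted p = 0.0011). Starved levels were 0.205 times the untreated level in Btg1 KO and 0.271 times in WT cells and lay within 1 log2 unit of the background level of 3. This was the 1 member that also passed the study's rule of a 3-fold change in each genotype.

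The other eIF3 rows were not called in either genotype. In Btg1 KO cells their differences lay between -0.16 (*Eif3b*) and 0.33 (*Eif3a*, row EIF3A), and in WT cells between -0.33 (*Eif3b*) and 0.48 (*Eif3h*). *Eif3d*, *Eif3l* (row EIF3EIP), *Eif3i* and *Eif3a* (row EIF3A) had starved WT arrays above untreated WT arrays, with adjusted p of 0.0527, 0.112, 0.0704 and 0.41. *Eif3b* had them below, with an adjusted p of 0.21. Over all rows tested, starved WT arrays were above in 33.4% and below in 29.6%. *Eif3e* (row EIF3S6) was under 3 in all group means and was not tested. The 2 rows of *Eif3a* differed by 0.31 (SE 0.24, adjusted p = 0.41) and 0.12 (SE 0.34, adjusted p = 0.84) in WT cells.

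**Figure D3:**
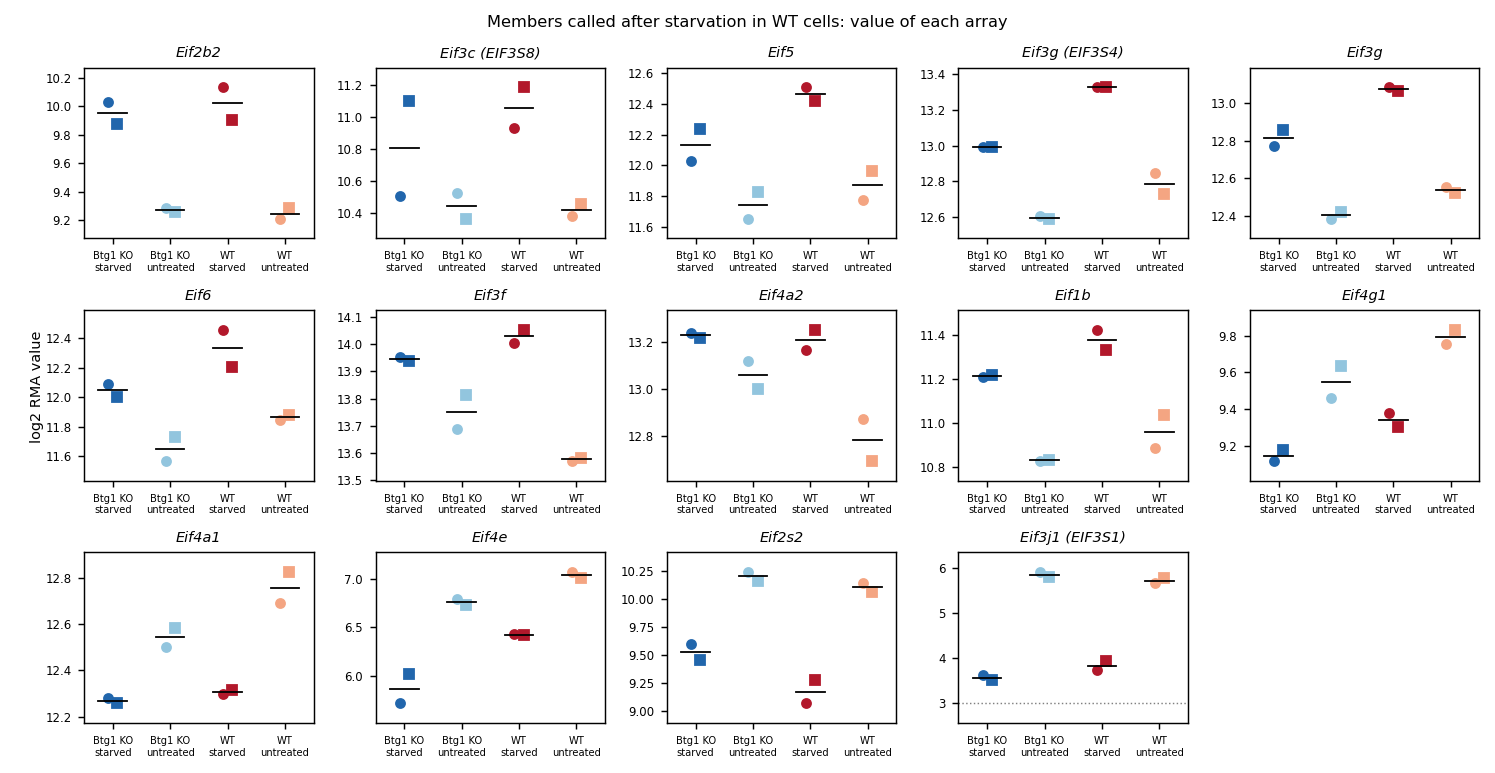
Log2 RMA value of each array (circle, replicate 1; square, replicate 2; line, group mean) for the 14 rows called in WT MEFs, ordered by the WT difference; each panel has its own axis. In all 14 panels both starved WT arrays lie on one side of both untreated WT arrays; for *Eif2s2* they read 9.07 and 9.28 against 10.14 and 10.06.

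Within the eIF4 factors the called rows were those of eIF4F. In Btg1 KO cells 2 of 11 tested rows were called lower, *Eif4e* and *Eif4g1*, and 0 higher. In WT cells 3 were called lower, *Eif4e*, *Eif4a1* and *Eif4g1*, and 1 higher, *Eif4a2*. The called rows were 18.2% of the 11 in Btg1 KO and 36.4% in WT cells, beside 15.7% and 24.7% of all rows tested. The median of the 11 rows was -0.16 in Btg1 KO and -0.02 in WT cells, beside 0.03 and 0.03 over all rows.

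*Eif4e*, the cap-binding subunit, read 5.71 and 6.02 in starved Btg1 KO cells, against 6.79 and 6.73 in untreated Btg1 KO cells, a difference of -0.89 (SE 0.20, adjusted p = 0.015). The WT arrays read 6.43 and 6.42 in starved WT cells, against 7.07 and 7.00 in untreated WT cells, a difference of -0.61 (SE 0.20, adjusted p = 0.048). All starved arrays were below all untreated arrays. The WT call was close to the threshold and was lost in 9 of 17 alternative tests, with an adjusted p of up to 0.301. The difference of responses was -0.28 (SE 0.28, adjusted p = 0.91), with an interval between -0.91 and 0.34.

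*Eif4g1*, the scaffold, read 9.12 and 9.18 in starved Btg1 KO cells, against 9.46 and 9.64 in untreated Btg1 KO cells, a difference of -0.40 (SE 0.11, adjusted p = 0.035). WT values were 9.38 and 9.30 in starved WT cells, against 9.75 and 9.83 in untreated WT cells, a difference of -0.45 (SE 0.11, adjusted p = 0.014). Arrays did not overlap in either genotype, but the Btg1 KO call was lost in 13 of 17 alternative tests. Its relative *Eif4g2*, which lacks the eIF4E-binding region, differed by 0.25 (SE 0.25, adjusted p = 0.57) in Btg1 KO and 0.05 (SE 0.25, adjusted p = 0.92) in WT cells.

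The genes for both closely related helicases of eIF4F moved in opposite directions in WT cells, and neither was called in Btg1 KO cells. *Eif4a1* read 12.28 and 12.26 in starved Btg1 KO cells, against 12.50 and 12.59 in untreated Btg1 KO cells, a difference of -0.27 (SE 0.08, adjusted p = 0.052). Its WT arrays read 12.30 and 12.31 in starved WT cells, against 12.69 and 12.83 in untreated WT cells, a difference of -0.45 (SE 0.08, adjusted p = 0.0033). *Eif4a2* read 13.24 and 13.22 in starved Btg1 KO cells, against 13.12 and 13.00 in untreated Btg1 KO cells, a difference of 0.17 (SE 0.09, adjusted p = 0.25). Starved and untreated arrays did not overlap in any of these comparisons. For *Eif4a2* the WT arrays read 13.17 and 13.25 in starved WT cells, against 12.87 and 12.69 in untreated WT cells, a difference of 0.43 (SE 0.09, adjusted p = 0.0068). The untreated arrays of the genotypes did not overlap for either gene, Btg1 KO cells being lower for *Eif4a1* and higher for *Eif4a2*, while the starved values were close (differences of -0.04 and 0.02).

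The promoters of the eIF4F genes called lower in WT cells are shown because they share a short motif that most promoters lack. Windows of 250 bases before annotated starts were taken from RefSeq (GRCm38.p6) for 39 of the 49 member genes. The E-box CACGTG, which reads the same on both strands, was found in 1 or more windows of 9 of these 39 genes (23.1%), beside 6.86% of 27025 genes with a window. It was in 3 of the 5 genes called lower in WT cells, *Eif4e*, *Eif4a1* and *Eif4g1*, and in 2 of the 7 called higher that had a window, *Eif1b* and *Eif3f*. The other 4 member genes with it, *Eif3k*, *Eif4h*, *Eif5a* and *Eif5a2*, were not called, and *Eif5a2* was not tested. The 27025 background genes include genes not tested on these arrays and were not matched to the members for signal or number of windows. A gene with several windows counts if any of them holds a match. Members were also above this background for the ETS and NRF1 motifs given under other observations, and below it for the ATF4 motif given below. The higher share is thus not particular to the E-box, and its cause was not tested. The first base of the E-box lay 189 bases before the start in *Eif4a1* (chr11:69672424-69672673, minus strand) and 54 bases before it in *Eif4g1* (chr16:20672477-20672726, plus strand). The sequences run 5′ to 3′ on the gene's strand, with the E-box in capitals.
Eif4a1: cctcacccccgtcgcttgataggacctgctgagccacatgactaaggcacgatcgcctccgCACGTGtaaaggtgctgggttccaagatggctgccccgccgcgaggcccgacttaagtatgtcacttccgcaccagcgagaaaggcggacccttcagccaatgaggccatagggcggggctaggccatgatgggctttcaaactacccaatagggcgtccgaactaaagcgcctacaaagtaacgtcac
Eif4g1: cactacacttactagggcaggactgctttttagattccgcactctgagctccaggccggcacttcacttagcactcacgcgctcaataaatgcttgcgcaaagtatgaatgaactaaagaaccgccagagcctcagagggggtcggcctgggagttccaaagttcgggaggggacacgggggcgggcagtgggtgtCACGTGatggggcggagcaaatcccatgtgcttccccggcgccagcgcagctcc
For *Eif4e* the E-boxes lay before the second of its annotated starts, which is inside the gene, and not in the window of the other start. There were 2 of them, 228 and 64 bases before that start, shown here with 10 bases on each side (chr3:138527030-138527055 and chr3:138527194-138527219, plus strand).
Eif4e, distal: cgccagcgacCACGTGatcacttttt
Eif4e, proximal: acacgtccgtCACGTGggcaggagcc
The windows of the 2 genes that rose are given for comparison, *Eif1b* (chr9:120492356-120492605, plus strand) and *Eif3f* (chr7:108934165-108934414, plus strand), with E-boxes 24 and 68 bases before the start.
Eif1b: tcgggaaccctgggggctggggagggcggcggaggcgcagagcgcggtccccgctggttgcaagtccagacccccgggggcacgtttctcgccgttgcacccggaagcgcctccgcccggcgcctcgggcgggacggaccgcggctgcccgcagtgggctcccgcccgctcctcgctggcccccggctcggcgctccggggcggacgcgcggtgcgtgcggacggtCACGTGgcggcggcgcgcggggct
Eif3f: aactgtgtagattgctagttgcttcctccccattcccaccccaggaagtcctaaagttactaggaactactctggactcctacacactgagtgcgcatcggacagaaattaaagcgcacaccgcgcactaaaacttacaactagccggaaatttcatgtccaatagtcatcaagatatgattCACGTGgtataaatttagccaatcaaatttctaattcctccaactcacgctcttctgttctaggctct
The same hexamer was thus present in genes of both directions, and a match is a description of letters only. The motif TGATGNAA, which is the core of the element bound by ATF4 with its partners and was searched on both strands, was in 1 of the 39 genes (*Eif2s3x*), 2.56% beside 3.91% of all genes with a window.

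The remaining eIF4 rows were not called. *Eif4a3*, a helicase of the exon junction complex, differed by -0.19 (SE 0.12, adjusted p = 0.34) in Btg1 KO and -0.30 (SE 0.12, adjusted p = 0.11) in WT cells. *Eif4e3*, which encodes a cap-binding relative of eIF4E, had the largest difference of responses of the eIF4 rows. It read 7.27 and 7.09 in starved Btg1 KO cells, against 7.22 and 6.94 in untreated Btg1 KO cells, and 7.45 and 7.20 in starved WT cells, against 6.94 and 6.80 in untreated WT cells. The difference of responses was -0.35 (SE 0.26, adjusted p = 0.87). *Eif4b* and *Eif4h*, cofactors of the helicase, had differences between -0.16 and 0.05 in both genotypes, not called. *Eif4e2*, another cap-binding relative, had 2 rows whose WT differences were -0.32 (SE 0.14, adjusted p = 0.12) (EIF4E2) and 0.03 (SE 0.09, adjusted p = 0.86) (EIF4EL3). *Eif4e1b* was under 3 in all group means.

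The tested eIF4E-binding proteins were not called. *Eif4ebp2*, a repressor that competes with eIF4G for eIF4E, read 8.26 and 7.96 in starved Btg1 KO cells, against 8.39 and 8.23 in untreated Btg1 KO cells, and 8.11 and 8.08 in starved WT cells, against 8.48 and 8.53 in untreated WT cells. Its difference was -0.21 (SE 0.14, adjusted p = 0.39) in Btg1 KO and -0.41 (SE 0.14, adjusted p = 0.066) in WT cells. *Eif4enif1*, the transporter of eIF4E, differed by -0.05 (SE 0.13, adjusted p = 0.84) in Btg1 KO and -0.09 (SE 0.13, adjusted p = 0.68) in WT cells. *Eif4ebp1*, which the name rule leaves out, went the other way and was called higher in both genotypes. It read 13.09 and 13.27 in starved Btg1 KO cells, against 12.90 and 12.53 in untreated Btg1 KO cells, and 13.29 and 13.32 in starved WT cells, against 12.51 and 12.46 in untreated WT cells. These are differences of 0.46 (SE 0.12, adjusted p = 0.028) in Btg1 KO and 0.82 (SE 0.12, adjusted p = 0.00098) in WT cells.

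*Eif5* and *Eif6* rose in both genotypes. *Eif5*, the GTPase-activating protein of eIF2, read 12.03 and 12.24 in starved Btg1 KO cells, against 11.65 and 11.82 in untreated Btg1 KO cells, a difference of 0.39 (SE 0.11, adjusted p = 0.038). WT cells read 12.51 and 12.42 in starved WT cells, against 11.78 and 11.96 in untreated WT cells, a difference of 0.59 (SE 0.11, adjusted p = 0.0033). *Eif6*, which keeps the large ribosomal subunit from joining early, read 12.09 and 12.00 in starved Btg1 KO cells, against 11.56 and 11.73 in untreated Btg1 KO cells, a difference of 0.40 (SE 0.11, adjusted p = 0.032). WT cells read 12.46 and 12.21 in starved WT cells, against 11.85 and 11.88 in untreated WT cells, a difference of 0.47 (SE 0.11, adjusted p = 0.0093). Arrays did not overlap for either gene, but each Btg1 KO call was lost in 10 of 17 alternative tests. *Eif5a*, the hypusine-bearing factor, differed by -0.09 (SE 0.10, adjusted p = 0.62) in Btg1 KO and -0.16 (SE 0.10, adjusted p = 0.28) in WT cells, and *Eif5b*, the GTPase of subunit joining, was under 3 in all group means.

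Of the eIF1 family, *Eif1b* rose in both genotypes. It read 11.21 and 11.22 in starved Btg1 KO cells, against 10.83 and 10.83 in untreated Btg1 KO cells, a difference of 0.38 (SE 0.09, adjusted p = 0.019) whose call was lost in 9 of 17 alternative tests. The WT arrays read 11.42 and 11.33 in starved WT cells, against 10.89 and 11.03 in untreated WT cells, a difference of 0.42 (SE 0.09, adjusted p = 0.0079). *Eif1a* had the lowest p for a difference of responses among the members, together with *Eif2b4*. It read 11.46 and 11.60 in starved Btg1 KO cells, against 11.53 and 11.67 in untreated Btg1 KO cells, and 11.76 and 11.58 in starved WT cells, against 11.40 and 11.38 in untreated WT cells. The difference of responses was -0.35 (SE 0.14, adjusted p = 0.76). *Eif1ax* (row EIF1AY) lay near background, between 2.10 and 3.54. Of the Argonautes, which bind small RNAs and are not initiation factors, *Ago2* differed by -0.32 (SE 0.18, adjusted p = 0.28) in Btg1 KO and -0.08 (SE 0.18, adjusted p = 0.81) in WT cells, *Ago3* by 0.66 (SE 0.38, adjusted p = 0.29) in Btg1 KO and -0.19 (SE 0.38, adjusted p = 0.77) in WT cells, and *Ago1* and *Ago4* were under 3 in all group means.

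The responses were compared directly by the difference between the Btg1 KO and the WT response, which called 0 of 44 members and 0.00% of all rows. At an unadjusted p under 0.05 there were 3 members, *Eif2b4*, *Eif1a* and *Eif3f*, beside 6.42% of all rows, and the smallest adjusted p of a member was 0.763. The 95% intervals of these differences reached, in the median, 0.38 log2 units to either side, so that smaller differences could not be told from 0 for many rows. Of the 14 rows called in WT cells, 12 had a smaller and 2 (*Eif3j1* and *Eif4e*) a larger change in Btg1 KO cells, with no difference called.

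Between genotypes, no member was called in either state, where 2.25% of all rows were called in starved cells (1.61% higher and 0.638% lower) and 0.662% in untreated cells (0.386% higher and 0.276% lower). In starved cells the difference, Btg1 KO minus WT, was negative for 35 of 44 members, beside 53.2% of all rows tested. The median was -0.13 beside -0.03 over all rows tested. Both Btg1 KO arrays were below both WT arrays for 24 members and above for 5, beside 27.3% of all rows below and 22.1% above. With 1 row kept per gene, 32 of 41 were negative, 22 below and 5 above. In untreated cells 30 of 44 differences were negative, beside 52.1% of all rows tested, with a median of -0.13 beside -0.02. There 21 members were below and 7 above, beside 25.3% and 22.6%. With 1 row kept per gene, 27 of 41 were negative, 18 below and 7 above. In both states 17 members were below and 2, *Ago2* and *Eif2s2*, above, beside 12.1% and 9.79% of all rows. Of the 12 macrophage markers, 9 were highest on both arrays of Btg1 KO replicate 1, as given above. With those 2 arrays left out, 0 members were called in either state. The array of Btg1 KO replicate 2 alone was below the WT mean for 34 of 44 members in starved cells and 31 in untreated cells, beside 52.3% and 50.8% of all rows. It was below both WT arrays for 31 members in starved cells (40.5% of all rows) and 23 in untreated cells (36.9%), and for 20 members in both states (20.1%). It was above both WT arrays for 7 members in starved cells (35.4% of all rows) and 10 in untreated cells (34.9%). The macrophage median of Btg1 KO replicate 2 (6.12 starved and 6.36 untreated) was also above that of the WT arrays (5.15 to 5.76). EIF2S3Y was high on both arrays of WT replicate 2 and on no Btg1 KO array. The counts of signs and of arrays were not made without WT replicate 2. The part of these differences between the samples was not tested.

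At an unadjusted p under 0.05 there were 11 members in starved cells and 9 in untreated cells, beside 16.8% and 17.3% of all rows. The smallest adjusted p in starved cells belonged to *Eif3g* (row EIF3S4). It read 12.99 and 12.99 in Btg1 KO cells, against 13.33 and 13.33 in WT cells, a difference of -0.34 (SE 0.08, adjusted p = 0.059). Its other row, EIF3G, differed by -0.26 (SE 0.08, adjusted p = 0.13). Both duplicates of EIF3S4 carried the same value to all digits in each starved group, so the spread between them is 0 there. *Eif5*, *Eif6* and *Eif5a* all had starved Btg1 KO arrays below starved WT arrays, with -0.33 (SE 0.11, adjusted p = 0.16), -0.29 (SE 0.11, adjusted p = 0.20) and -0.26 (SE 0.10, adjusted p = 0.21). *Eif2s2* ran the other way, with 0.36 (SE 0.11, adjusted p = 0.15).

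In untreated cells the smallest adjusted p was that of *Eif5a*, which read 12.06 and 12.26 in untreated Btg1 KO cells, against 12.55 and 12.44 in untreated WT cells, a difference of -0.34 (SE 0.10, adjusted p = 0.13). *Eif2b5*, *Eif2b4* and *Eif2b1* were each lower on both untreated Btg1 KO arrays, with -0.25 (SE 0.09, adjusted p = 0.18), -0.27 (SE 0.11, adjusted p = 0.26) and -0.19 (SE 0.11, adjusted p = 0.43). After starvation the difference for *Eif2b4* was 0.12 (SE 0.11, adjusted p = 0.66).

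**Figure D4:**
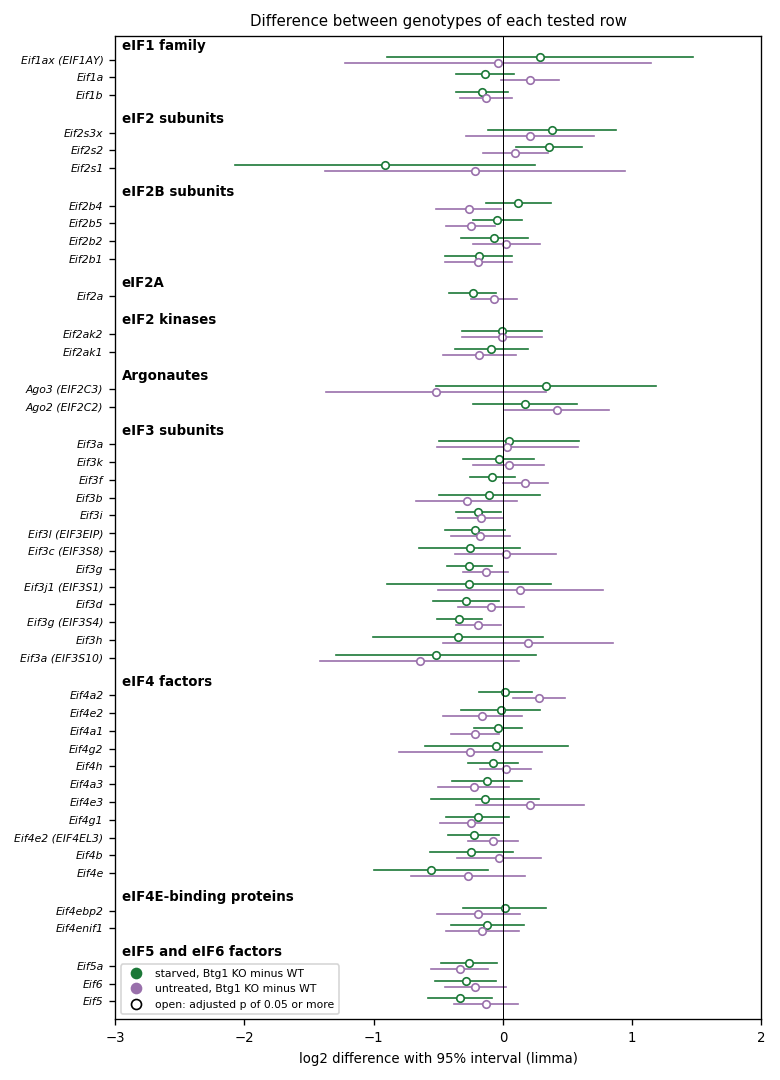
Log2 difference, Btg1 KO minus WT, of each of the 44 tested rows in starved (green) and untreated (purple) MEFs, with 95% intervals from limma, grouped by role. Open points throughout show that no row was called. Of the differences, 35 of 44 starved and 30 of 44 untreated were negative, beside 53.2% and 52.1% of all rows tested.

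Genes that act on these factors or downstream of eIF2 were described from a list of 29 regulators of initiation and of the eIF2 cycle, of which 25 were tested. The list was made with earlier results of these data known. It holds *Ddit3* and *Ppp1r15a*, which the paper reports as induced on these arrays, so its counts describe the list and test nothing. In Btg1 KO cells 7 rose and 0 fell, with a median of 0.19, beside 8.44% of all rows higher, 7.24% lower and a median of 0.03. In WT cells 6 rose and 2 fell, with a median of 0.18, beside 13.1% of all rows higher, 11.6% lower and a median of 0.03. *Ddit3* (CHOP), a transcription factor of the stress response, read 12.18 and 11.91 in starved Btg1 KO cells, against 9.50 and 8.71 in untreated Btg1 KO cells, and 12.64 and 12.57 in starved WT cells, against 8.65 and 8.03 in untreated WT cells. *Ppp1r15a* (row MYD116, the GADD34 subunit that directs the phosphatase of eIF2 alpha) read 11.03 and 10.62 in starved Btg1 KO cells, against 8.94 and 8.25 in untreated Btg1 KO cells, and 11.46 and 10.97 in starved WT cells, against 8.56 and 8.17 in untreated WT cells. Both were far above their untreated levels on all starved arrays. The difference for *Ddit3* was 2.95 (SE 0.25) in Btg1 KO and 4.27 (SE 0.25) in WT cells. The difference between these responses, -1.32 (SE 0.36, adjusted p = 0.65), was not called, as were 0 of all 12691 rows tested. Nor was that between untreated Btg1 KO and untreated WT cells, 0.76 (SE 0.25, adjusted p = 0.17). By qPCR the paper reports significantly weaker induction of *Ddit3* and *Ppp1r15a* in knockout cells, and a modestly raised *Ddit3* level without starvation. For *Ddit3* it also reports weaker induction of the protein and less ATF4 at the promoter. The arrays do not test those experiments. *Ppp1r15a* differed by 2.23 (SE 0.25) in Btg1 KO and 2.85 (SE 0.25) in WT cells, and *Atf4* by 0.80 (SE 0.12) in Btg1 KO and 0.90 (SE 0.12) in WT cells, all called.

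Of 13 genes of elongation, termination and hypusine synthesis, 12 were tested. In Btg1 KO cells 2 rose and 1 fell, with a median of 0.11, beside 15.7% of all rows called and a median of 0.03. In WT cells 4 rose and 1 fell, with a median of 0.18, beside 24.7% of all rows called and a median of 0.03. *Eef2k*, the kinase that inhibits the elongation factor eEF2, was the 1 that fell. It read 5.87 and 5.85 in starved Btg1 KO cells, against 6.76 and 6.88 in untreated Btg1 KO cells, and 5.04 and 5.57 in starved WT cells, against 6.80 and 6.70 in untreated WT cells. The differences were -0.96 (SE 0.24, adjusted p = 0.023) in Btg1 KO and -1.45 (SE 0.24, adjusted p = 0.0017) in WT cells. *Eef2* was not called in Btg1 KO cells, with 0.19 (SE 0.09, adjusted p = 0.18), and was called in WT cells, with 0.57 (SE 0.09, adjusted p = 0.0011). The responses of both genotypes were not called different for *Eef2* (-0.38, SE 0.12, adjusted p = 0.71) or *Eef2k* (0.49, SE 0.33, adjusted p = 0.86). *Gspt2*, a release factor GTPase, rose by 0.77 (SE 0.12) in Btg1 KO and 0.84 (SE 0.12) in WT cells.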

How the data were processed

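Total RNA of 8 MEF samples was measured on MouseRef-8 v2 bead arrays (Illumina), and the authors normalized the arrays by RMA in ArrayStar; GenomeStudio 2011.1 is named in the submitters' processing notes. The deposited log2 values, 1 per named row and array, were used as they stand. The joining of probes to 1 row was not stated in those sources. A second deposited table of group means and of the authors' fold ratios was not used. The labels call the samples of a group biological duplicates without saying that they came from separate embryos, so p-values measure the spread between these samples only, and 2 arrays per group limit the precision.

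Of 18132 rows, 12691 had a group mean reaching 3 in 1 group or more and were tested. Means of the 4 groups were fitted over all 8 arrays with limma 3.58.1 in R 4.3.3 (moderated by intensity trend, 4 residual degrees of freedom), with Benjamini-Hochberg adjustment over all rows tested and a threshold of 0.05. The methods name t-tests in general but none for the arrays. The procedure was tested on simulated data. Older row names were matched to RefSeq symbols, 40 of the 52 directly and 12 through a synonym. Promoter windows came from RefSeq; motifs were searched in the 250 bases before each annotated start.

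The members and gene lists were chosen with earlier results of these data known, and the motifs after the members' values were seen. Described in full were the eIF2 kinases and members called in at least 1 comparison with arrays that did not overlap; other members are given by counts, ranges or differences, with the extremes of their group named. *Eif1a*, *Eif2b4*, *Eif2b5*, *Eif2s3x*, *Eif4e3* and *Eif4ebp2* were also given in full, after their values were seen. Alternatives were a replicate block, other filters, no intensity trend, median centring, fits on 4 arrays, the methods' t-test and fold rule, a threshold of 0.1, and leaving out arrays; the t-test at an unadjusted threshold and the counts on 1 Btg1 KO array per state were added after the data were seen.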

Additional observations from a re-analysis of the deposited data

Results flagged for a closer look

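*Eif2b5*, the catalytic subunit of eIF2B, was flagged because its starved arrays lay on opposite sides of the untreated arrays in the 2 genotypes. Both starved Btg1 KO arrays (11.07 and 11.03) were above both untreated Btg1 KO arrays (10.84 and 10.93), and both starved WT arrays (11.10 and 11.10) were below both untreated WT arrays (11.17 and 11.11). The difference of responses, Btg1 KO minus WT, was 0.21 (SE 0.12, adjusted p = 0.84 in limma) and was not called. Neither change was called by itself. The WT change was -0.04, with 11.0964 on the higher starved array against 11.1079 on the lower untreated array. Over all rows tested, starved arrays lay above in 29.6% in Btg1 KO cells and below in 29.6% in WT cells. The share of rows with both was not counted.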

How the results depend on the processing

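The 28 results of single members were those called and the uncalled ones of *Eif2ak1* and *Eif2ak2*. Of 504 alternatives of them, 366 stayed on their side of the threshold, 131 were no longer past it, 7 (all *Eif2ak2*) passed it and 0 turned round. The signs of called members are no test of stability. Most settings keep the same group means, and starved and untreated arrays of called members did not overlap, so leaving out arrays could not turn a sign. The 10 members called in Btg1 KO cells were 4 without the intensity trend, 5 on their own 4 arrays, 0 by the methods' t-test after adjustment (9 at an unadjusted p under 0.05), 1 by the 3-fold rule, 5 without both arrays of WT replicate 2, 3 without both arrays of Btg1 KO replicate 1 and between 5 and 9 with 1 array left out. The 14 called in WT cells were 7 without the trend, 0 by the adjusted t-test (19 unadjusted), 1 by the 3-fold rule, 6 without both arrays of WT replicate 2 and between 9 and 16 with 1 array left out. In starved cells Btg1 KO and WT differed in 0 members, but in 1, the EIF3S4 row of *Eif3g*, with the replicate block, a mean of at least 5, the adjusted t-test or a threshold of 0.1. The t-test of that row would pass at any size of difference, because the spread between its duplicates was 0 in both starved groups. The t-test at an unadjusted p under 0.05 gave 5 members between the genotypes in starved cells, 4 in untreated cells and 5 for the difference of responses. The last 2 comparisons were 0 under every other setting run, leaving out arrays included. The cause of these shifts was not tested, apart from the fewer arrays in some fits. Median differences of groups of members were within the spread in 113 of 123 alternatives and moved in 10. The labels do not say that a replicate number marks a shared embryo or day. The data hold hints of it: EIF2S3Y was high on both arrays of WT replicate 2 alone, and most macrophage markers on both arrays of Btg1 KO replicate 1. The differences between duplicates correlated at 0.24 between the Btg1 KO states and 0.12 between the WT states over all rows. Over the members these values were 0.39 and 0.61. Between the genotypes, where a number cannot mark a shared embryo, they correlated at 0.105 in untreated and 0.077 in starved cells over all rows. Over the members those values were -0.11 and 0.45. The correlations within a genotype thus do not by themselves show a shared embryo. With the number as a block 12 members were called in Btg1 KO cells, with *Eif2ak2* and *Eif4a1* added, and 18 in WT cells, with *Eif1a*, *Eif2ak2*, EIF3D and *Eif4ebp2* added. Arrays carry no counts, so depth sets no limit here; rows near the background level of 3 (*Eif2s1*, *Eif1ax*, starved *Eif3j1*) have the least reliable values.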

Other observations

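*Eif2d*, which delivers tRNA without GTP, lies outside the name rule because its row is named LGTN. It differed by -0.02 (SE 0.19, adjusted p = 0.96 in limma) in Btg1 KO and -0.22 (SE 0.19, adjusted p = 0.47) in WT cells. Other motifs found on both strands in the 250 bases before the start were CCGGAAG, the ETS core, in 11 of 39 member genes (28.2%) beside 7.83% of all genes with a window, and the NRF1 motif in 6 (15.4%) beside 4.23%. The ETS core was in 3 of the 7 genes with a window that were called higher in WT cells (*Eif1b*, *Eif3c* and *Eif3g*). It was in 0 of the 5 with a window that were called lower. The NRF1 motif was in 0 of those 7 and in 1 of those 5 (*Eif4e*). These splits rest on few genes and were not tested, and the background has the limits given for the E-box.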
